A study of Mus musculus with 15 samples.

Results

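The 9 genes of the intrinsic apoptosis machinery examined here were the pore formers Bax and Bak1, the BH3-only genes Bid and Bcl2l11, the guardians Bcl2 and Bcl2l1, the apoptosome genes Apaf1 and Casp9, and the caspase inhibitor Xiap. They were found by their GENCODE M21 symbols among the 38561 Ensembl mouse gene identifiers that were counted, and all 9 were present. In the intrinsic pathway, BH3-only proteins such as Bid and Bim (Bcl2l11) relay stress signals to Bax and Bak, which then permeabilise the outer mitochondrial membrane. Guardians such as Bcl2 and Bcl-xL (Bcl2l1) bind these proteins and hold them in check. Released cytochrome c assembles Apaf1 and caspase 9 into the apoptosome, and Xiap inhibits the caspases that follow. Developing neurons are known to depend on this balance for survival, and Bax is known as the main pore former in many young neurons.

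RNA was sequenced from laser-captured mouse Purkinje cells (PCs), the output neurons of the cerebellar cortex, at birth (P0) and at postnatal ages P4, P8, P14 and P21. There were 3 biological replicates at each of the 5 time points, 15 samples in all. The study used male mice, the strain is labelled C56/BL6 and written C57/BL6 in the study's methods, and no sample carried a mutation or treatment. From P4 to P21 individual PC soma were cut from sections of each mouse, whereas P0 cells were taken as clusters of PCs, so differences between P0 and the later time points and this difference in capture cannot be told apart. In bulk samples such as these, fewer cells of a type and less RNA per cell cannot be told apart either.

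Total counts on genes ranged from 3409371 to 7814951 per sample, and 3 counts, the limit that a count of 0 allows, correspond to between 0.384 and 0.880 counts per 1000000 (CPM). That limit covers counting error only and uses total counts on genes, without the TMM adjustment described below. All 6 genes fixed as PC markers (Calb1, Car8, Itpr1, Pcp2, Ppp1r17 and Pcp4) rose with age in edgeR's quasi-likelihood test, and their summed level went from 5443 ± 778 CPM at P0 to 42686 ± 5147 CPM at P21 (SD, n = 3). The levels in CPM below use library sizes adjusted by TMM, edgeR's correction for differences in RNA composition. The summed level of 8 Bergmann glia and astrocyte markers was 91.3% of the PC marker sum at P0 and 8.88% at P21. Summed markers of granule neurons, vessels, microglia and interneurons were each at most 8.52% of the PC sum at P0 and at most 0.954% at P21. Reads outside genes or shared between genes made up 25.3 to 31.0% of all reads tallied at P0 and 18.7 to 20.7% at P21.

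Of the 9 genes, 6 belong to the Bcl2 family and share the BH3 stretch, the short helix through which family members bind each other. The stretches are shown because the genes whose levels moved in opposite directions below, Bax and Bcl2l1, carry the same core. Each line gives the 42 coding bases around that core in GENCODE M21 transcripts on GRCm38, read 5′ to 3′ on the coding strand, and capitals mark the codons for the conserved leucine and for the glycine and aspartate that follow it.
Bax (exon 3, minus strand), chr7:45465994-45466035: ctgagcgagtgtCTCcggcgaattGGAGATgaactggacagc
Bak1 (exon 4, minus strand), chr17:27022528-27022569: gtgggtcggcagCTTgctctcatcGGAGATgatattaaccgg
Bid (exon 4, minus strand), chr6:120897286-120897327: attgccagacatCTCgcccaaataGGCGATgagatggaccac
Bcl2 (exon 1, minus strand), chr1:106712572-106712613: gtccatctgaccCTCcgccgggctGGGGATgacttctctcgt
Bcl2l1 (exon 2, minus strand), chr2:152829694-152829735: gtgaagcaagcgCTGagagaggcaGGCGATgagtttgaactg
Bcl2l11 (exon 3, plus strand), chr2:128147138-128147179: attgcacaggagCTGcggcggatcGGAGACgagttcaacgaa
Each stretch lies within 1 coding exon. Bases agreed between 2 stretches at 15 of 42 positions (35.7%) for Bid and Bcl2 and at 24 of 42 (57.1%) for Bak1 and Bid, the lowest and highest of the 15 pairs. The stretches of Bax and Bcl2l1 agreed at 17 of 42 positions (40.5%), and those of the guardians Bcl2 and Bcl2l1 at 21 of 42 (50%). Apaf1 (chr10:90989311-91082770), Casp9 (chr4:141793612-141815976) and Xiap (chrX:42059679-42109656) do not belong to the family.

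Levels were first compared between the 9 genes per length, as RPKM, the counts per kilobase of summed exon and per 1000000 counts on genes. Summed exon length takes in every annotated exon and ranged from 1576 bases for Bax to 9469 bases for Xiap. The order, shares and ratios per length below depend on these lengths, and evenness of coverage along transcripts was not tested. Bax was the highest of the 9 from P0 to P14, and Bcl2l1 was the highest at P21. Bax alone gave 72.6% of the summed RPKM of the 9 genes in P0 samples, 69.0% at P4 and 67.1% at P8. Its share was 48.7% at P14 and 36.5% at P21. Bcl2l1 gave 9.96% of it at P0 and 40.5% at P21.

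At P0 the mean level of Bax was 143 ± 30.2 RPKM (SD, n = 3), followed by Bcl2l1 at 19.7 ± 5.80 RPKM and Casp9 at 10.9 ± 2.86 RPKM. The remaining genes, Xiap, Bak1, Bid, Bcl2l11, Bcl2 and Apaf1, lay between 2.59 and 6.64 RPKM on average at P0, and each overlapped its neighbour in this order. At P21 the order was Bcl2l1 at 34.6 ± 3.46 RPKM, Bax at 31.2 ± 7.01 RPKM, Casp9 at 8.04 ± 0.378 RPKM and Xiap at 7.63 ± 0.565 RPKM. The samples of Bcl2l1 and Bax overlapped at P21 and at P14, as did those of Casp9 and Xiap, whereas Bax stood apart from Bcl2l1 in every sample from P0 to P8. Bak1, Bcl2l11, Bcl2, Bid and Apaf1 were the 5 lowest genes at P21, between 0.301 and 1.42 RPKM on average, and neighbours among them overlapped.

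**Figure D1:**
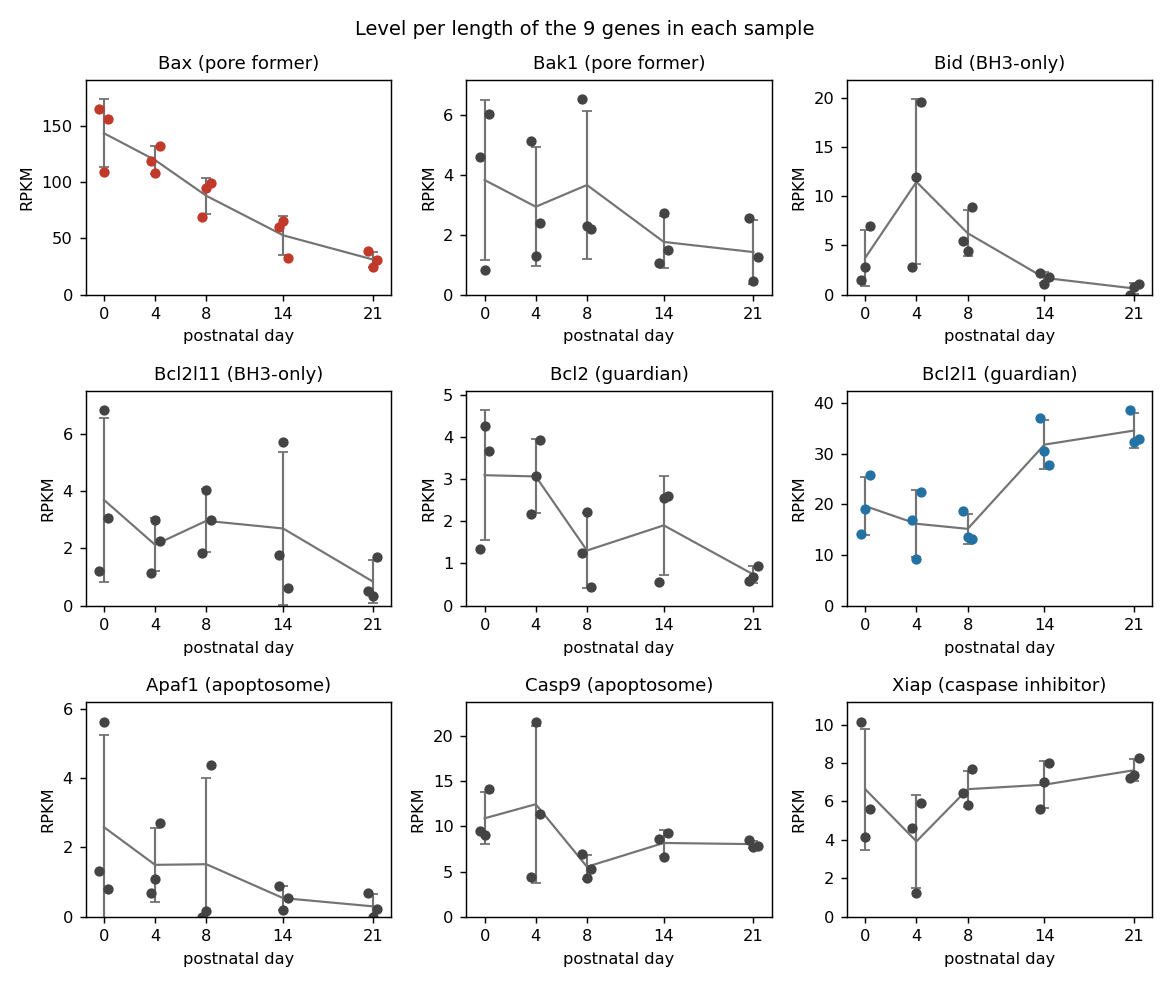
Level per length (RPKM, linear axes from 0, a separate scale for each gene) of the 9 genes against postnatal day. Points are the 3 samples of each time point, shifted sideways for visibility, and lines join the means with bars of 1 SD, cut off at 0. Bax is lower and Bcl2l1 higher in all P14 and P21 samples than in any P0 or P4 sample, while the other genes overlap.

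The study asked how PC gene expression changes over postnatal maturation, and for each gene the slope of log2 expression on postnatal day was tested across all 15 samples with edgeR's quasi-likelihood test, with p-values adjusted by the Benjamini-Hochberg method over the 14293 genes tested and a threshold of 0.05. All 9 genes were among those tested. Of them, 1 rose (Bcl2l1) and 2 fell (Bax and Bid), and 6 did not pass. Among all genes tested, 12% rose and 14.5% fell, so these counts are near the background. The median slope of the 9 genes was −0.06 log2 units per day and that of all genes −0.0089, with 7 of the 9 below 0. The share of all genes with a slope below 0 was not counted, so that number has no background beside it. From P0 to P21 the median change of all genes was −0.14 on the log2 scale, against which the single changes below can be read.

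With the time point as a factor, a test that also finds genes that peak or dip, Bax and Bcl2l1 were called among the 9, beside 19.3% of all genes, and Bid had an adjusted p of 0.0506. In the direct contrast of P21 with P0, Bcl2l1 was higher and Bax lower, beside 11.8% of all genes higher and 11.1% lower. DESeq2 also called Bid and Bcl2 lower in this contrast, whereas the shares just given are those of edgeR. Under 4 other ways of processing, DESeq2 among them, 1433 to 2065 of all genes were lower, against 1590 in the fit used here. Of the 9 genes, only for Bax and Bcl2l1 did the 6 P14 and P21 samples not overlap the 6 P0 and P4 samples, with Bcl2l1 above and Bax below. Among all genes tested, 8.18% lay entirely above and 7.33% entirely below in this way.

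The pore formers Bax and Bak1 differed in level. Bax was at 238, 157 and 222 CPM in the 3 P0 samples, followed by 175, 169 and 192 CPM for P4 and 103, 144 and 149 CPM for P8. It was at 102, 107 and 54.8 CPM in P14 samples and 68.6, 44.6 and 54.3 CPM in P21 samples. All 6 samples of P0 and P4 were above the 3 samples of P8, and all of these 9 samples except P8 replicate 1 were above every P14 and P21 sample. The P14 and P21 samples overlapped.

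The slope of Bax was −0.093 ± 0.012 log2 units per day (SE), with an adjusted p of 9.54e-06 in edgeR's quasi-likelihood test. From P0 to P21 Bax fell by 1.89 ± 0.28 on the log2 scale (SE), a level 3.70-fold lower, with an adjusted p of 1.24e-04. Bax was not called in any step between neighbouring time points, where its log2 differences were −0.20, −0.44, −0.58 and −0.66 in order of age. The slope was −0.097 with an adjusted p of 2.07e-04 when the P0 samples were left out, and it lay between −0.098 and −0.086 when single samples were left out. RPKM, which uses total counts on genes instead of the TMM library size, was 119 ± 12.2 at P4, 87.8 ± 16.2 at P8 and 52.6 ± 17.5 at P14. Over 192 bases, 12.2% of its exons, Bax overlaps Gm45808 on the same strand, whose identifier is not among those counted.

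The sum of markers of dividing cells and granule cell progenitors (Mki67, Top2a, Cdk1, Ccnb1, Atoh1 and Barhl1) was also lower with age. Of the 5 that could be tested, Mki67, Top2a, Cdk1 and Ccnb1 fell. Barhl1 did not pass (slope −0.050 ± 0.085 log2 units per day, adjusted p = 0.719 by edgeR). Atoh1, the defining progenitor gene, was at 0 in every sample. The summed level of these markers was 414 ± 11.7 CPM in P0 samples, 200 ± 75.2 in P4, 69.2 ± 4.40 in P8, 8.05 ± 7.98 in P14 and 2.39 ± 1.34 in P21 (SD, n = 3). The samples ranged from 400 to 422 CPM at P0 and from 0.998 to 3.67 CPM at P21. The part of this signal in the fall of Bax was not tested. From P14 to P21 the log2 difference of Bax was −0.66 ± 0.28 (SE) and was not called (adjusted p = 0.629 by edgeR). Summed glial markers were at 4971 ± 778 CPM at P0, 9138 ± 902 CPM at P8 and 3789 ± 834 CPM at P21. Relative to the PC marker sum they were 91.3% at P0, 48.2% at P8 and 8.88% at P21. Single glial markers differed, and of the 8 tested 2 rose and 2 fell with age. The part of glia in the fall of Bax was not tested either.

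**Figure D2:**
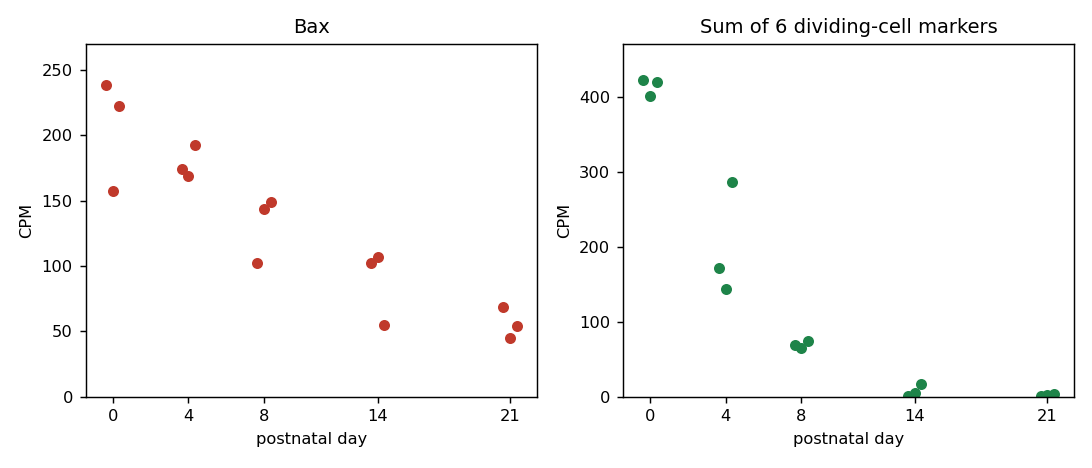
Level of Bax (left) and summed level of 6 markers of dividing cells and granule cell progenitors (right) in each sample, in CPM on linear axes from 0, against postnatal day. Each point is 1 sample, shifted sideways for visibility. The marker sum is at most 17.0 CPM at P14 and P21, and Bax lies between 44.6 and 107 CPM at these ages.

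Bak1, the second pore former, was much lower per length than Bax in every sample, and the ratio of Bax to Bak1 in RPKM was between 10.6 and 131. Bak1 lay between 1.84 and 13.1 CPM at P0 and between 1.26 and 6.99 CPM at P21, so its time points overlapped. Its slope of −0.056 ± 0.041 log2 units per day did not pass (adjusted p = 0.350 by edgeR). Its counts were between 6 and 74 per sample, and replicates of one time point differed up to 7.11-fold. Over 437 bases, 18.2% of its exons, Bak1 overlaps Ggnbp1 on the opposite strand. Whether strand was used in counting is not given in the sources used here. Without it, the authors' counting mode leaves out reads that lie wholly in stretches shared by genes on opposite strands. Levels per length of such genes may then be too low.

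Among the guardians, Bcl2l1 rose and Bcl2 did not pass the test. Bcl2l1, which encodes the neuronal survival factor Bcl-xL, was at 59.9, 79.8 and 107 CPM in P0 samples, followed by 72.6, 42.1 and 94.9 CPM for P4 and 80.4, 60.0 and 58.0 CPM for P8. It was at 185, 146 and 135 CPM in P14 samples and 201, 172 and 169 CPM in P21 samples. All 9 samples up to P8 were below all 6 samples of P14 and P21. Within each of these blocks the time points overlapped.

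The slope of Bcl2l1 was 0.068 ± 0.015 log2 units per day (SE; adjusted p = 0.00176 by edgeR's quasi-likelihood test). It was higher at P21 than at P0 by 1.14 ± 0.29 on the log2 scale, or 2.20-fold, with an adjusted p of 0.0103. These calls held when any single sample was left out, with slopes between 0.065 and 0.080, and without the P0 samples the slope was 0.096 (adjusted p = 7.59e-04). Bcl2l1 was the only gene of the 9 called in a step between neighbouring time points. From P8 to P14 it was higher by 1.23 ± 0.30 on the log2 scale, or 2.35-fold (adjusted p = 0.0337 by edgeR), beside 1.33% of all genes higher and 1.37% lower. At an unadjusted p below 0.05, 2 of the 9 genes passed in this step, Bcl2l1 and Bax, and DESeq2 called Bcl2l1 alone. The share of all genes passing at this unadjusted threshold was not counted, so that number cannot be set beside the shares given.

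This step call lay close to the threshold, and 8 of the 15 fits with a sample left out did not keep it. It was lost without replicate 1, 2 or 3 of P8, without replicate 1, 2 or 3 of P14 and without replicate 1 or 2 of P21, with adjusted p-values from 0.0505 to 0.167 and log2 differences from 1.08 to 1.40. None of the 9 genes was called by edgeR in the other steps, beside 1.85% of all genes from P0 to P4, 1.12% from P4 to P8 and 0.322% from P14 to P21. At an unadjusted p below 0.05 the number was 0 from P0 to P4, 1 from P4 to P8 (Casp9) and 1 from P14 to P21 (Bax), and DESeq2 called 0 in each. These unadjusted numbers have no share of all genes beside them, since the shares above are at the adjusted threshold.

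Other cell type signals also differed between P8 and P14. The PC marker sum was 18967 ± 1242 CPM at P8 and 33799 ± 2848 CPM at P14. The sum of 5 oligodendrocyte markers was 264 ± 78.6 CPM at P8, 422 ± 10.5 CPM at P14 and 22.8 ± 11.9 CPM at P0, where 2 of the 5 were at 0 in every sample. Samples ranged from 13.9 to 36.2 CPM at P0 and from 394 to 842 CPM at P21 for this sum, and its 5 genes all rose with age. The part of these signals in the rise of Bcl2l1 was not tested.

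Bcl2, the founding member of the family, was at 11.4, 35.7 and 30.3 CPM at P0 and at 5.99, 7.33 and 9.74 CPM at P21. These groups did not overlap, but the P8 and P14 samples spanned 3.93 to 25.4 CPM. Its slope was −0.075 ± 0.031 log2 units per day with an adjusted p of 0.0841 by edgeR, and from P0 to P21 the log2 difference was −1.74 ± 0.71 (adjusted p = 0.0931). Its trend passed only without P0 replicate 1 (adjusted p = 0.0487), and the contrast passed with DESeq2 (adjusted p = 0.0491). The annotation places an antisense gene, D630008O14Rik, over 558 bases of its exons.

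Within samples, the ratio of Bcl2l1 to Bcl2 per length was between 4.46 and 10.5 at P0 and between 34.6 and 66.9 at P21. The ratio of Bcl2l1 to Bax per length was 0.0863, 0.175 and 0.165 in the P0 samples and 1.01, 1.33 and 1.07 in the P21 samples. It ranged from 0.0855 to 0.169 at P4, from 0.134 to 0.269 at P8 and from 0.468 to 0.848 at P14. Every P14 sample was thus above all 9 earlier samples, and every P21 sample was above every P14 sample. This ratio is given as a description, since it combines a gene that rose with a gene that fell.

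**Figure D3:**
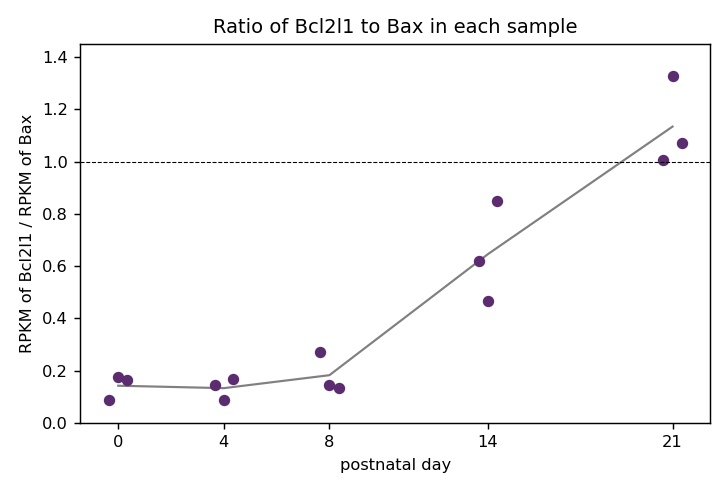
Ratio of the RPKM of Bcl2l1 to the RPKM of Bax in each sample against postnatal day, on a linear axis from 0. Points are samples, shifted sideways for visibility, the line joins the means of 3 samples, and the dashed line marks equal levels per length. The 3 P21 samples lie between 1.01 and 1.33 and the samples up to P8 at or below 0.269.

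The bases upstream of the start sites of these opposed genes are shown so that they can be set side by side. RefSeq (GRCm38.p6) lists 1 start site for Bax and 3 for Bcl2l1, and the 250 bases before the single site of Bax and the outermost site of Bcl2l1 follow, both on the minus strand and read 5′ to 3′. Capitals mark matches on either strand to the E box CACGTG or the GC box GGGCGG. The letters TATAAA and CCAAT were searched as well.
Bax, chr7:45466899-45467148: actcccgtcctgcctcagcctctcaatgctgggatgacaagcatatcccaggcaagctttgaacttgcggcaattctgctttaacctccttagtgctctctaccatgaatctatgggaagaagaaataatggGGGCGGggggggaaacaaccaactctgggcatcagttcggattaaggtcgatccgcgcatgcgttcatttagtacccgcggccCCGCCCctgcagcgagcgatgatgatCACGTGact
Bcl2l1, chr2:152831729-152831978: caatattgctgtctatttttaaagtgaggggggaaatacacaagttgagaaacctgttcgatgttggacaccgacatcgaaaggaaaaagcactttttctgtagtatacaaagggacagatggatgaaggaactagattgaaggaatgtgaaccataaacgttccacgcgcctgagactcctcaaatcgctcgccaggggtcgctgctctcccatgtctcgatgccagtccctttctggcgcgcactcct
Bax held 1 E box and 2 GC boxes in this window, none overlapping another, and its GC content was 54%. None of the 3 windows of Bcl2l1 held any of the 4 motifs, and the one shown had a GC content of 47.6%. Of all 32851 windows of this length, 6.02% held the E box, 32.7% the GC box, 12.4% TATAAA and 33.8% CCAAT, with a median GC content of 52.4%. The 9 genes have 14 such windows, of which 9 held a GC box, 1 the E box, 1 TATAAA and 2 CCAAT. A match of letters is a description of the window, not a binding site.

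Of the BH3-only genes, Bid fell and Bcl2l11 did not pass. Bid, which links death receptor signals to mitochondria, was at 4.70, 9.18 and 22.3 CPM in P0 samples, followed by 9.31, 42.5 and 64.5 CPM for P4 and 18.2, 15.1 and 30.2 CPM for P8. It was at 8.4, 4.0 and 6.87 CPM in P14 samples and 0, 3.35 and 4.15 CPM in P21 samples. Its highest samples were 2 of the 3 at P4, and every P14 and P21 sample was below every P4 and P8 sample but not below every P0 sample. The count of 0 at P21 allows up to 0.880 CPM by total counts on genes, without the TMM adjustment.

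The slope of Bid was −0.17 ± 0.055 log2 units per day with an adjusted p of 0.0265 by edgeR's quasi-likelihood test, and −0.23 without the P0 samples (adjusted p = 0.00217). The call was lost without P4 replicate 3 (adjusted p = 0.0667) and without P21 replicate 1 (0.0559), replicate 2 (0.0664) or replicate 3 (0.0560), with log2(day + 1) in place of the day (0.379) and with limma-voom (0.320). From P0 to P21 the log2 difference of −2.21 ± 0.96 did not pass (adjusted p = 0.112 by edgeR), whereas DESeq2 called it (0.0410). Over 628 bases, 17.7% of its exons, Bid overlaps Bcl2l13 on the opposite strand.

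Bcl2l11 encodes Bim, a BH3-only protein known for its part in neuronal death after loss of trophic support. It lay between 9.0 and 50.2 CPM at P0, between 5.15 and 48.0 CPM at P14 and between 3.14 and 15.2 CPM at P21. Replicates differed up to 9.33-fold, and all time points overlapped P0. Its slope was −0.06 ± 0.039 log2 units per day (adjusted p = 0.282 by edgeR) and its P21 to P0 difference −1.81 ± 0.86 on the log2 scale (adjusted p = 0.144).

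Of the genes examined first, none of those downstream of mitochondria (Apaf1, Casp9 and Xiap) passed the trend test. Apaf1, the scaffold of the apoptosome, was at 11.0, 46.5 and 6.55 CPM at P0 and at 6.99, 0 and 2.23 CPM at P21. It was also at 0 in P8 replicate 1, while P8 replicate 3 reached 37.7 CPM. With this spread its slope of −0.13 ± 0.064 log2 units per day had an adjusted p of 0.135 by edgeR.

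Casp9, the initiator caspase of the apoptosome, was at 45.2, 42.9 and 66.5 CPM at P0 and at 49.9, 46.9 and 45.8 CPM at P21. At P4 its samples were at 21.1, 112 and 54.8 CPM, and P4 replicate 2, the most deeply counted library, was the highest of all 15. Its slope was −0.011 ± 0.021 log2 units per day (adjusted p = 0.757 by edgeR) and it changed sign, to 0.0043, without P4 replicate 2. The exons of Casp9 overlap Cela2a and Ctrc on the opposite strand over 94 bases each.

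Xiap, an inhibitor of caspase 9, was at 88.3, 35.9 and 47.9 CPM at P0, at 40.9, 11.5 and 51.9 CPM at P4, and at 77.9, 81.1 and 87.6 CPM at P21. The P21 samples were close together, and P0 replicate 1 was higher than all of them. Its slope of 0.037 ± 0.019 log2 units per day did not pass (adjusted p = 0.162 by edgeR) but did without that P0 sample, at 0.056 (adjusted p = 0.0319). Per length, the ratio of Xiap to Casp9 was between 0.0563 and 1.07 at P4 and between 0.856 and 1.05 at P21.

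The genes differed in how far replicates agreed. On the log2(CPM + 1) scale the pooled SD within time points was 0.34 for Bax and 0.36 for Bcl2l1, the most counted genes. It was 0.58 for Casp9, 0.60 for Xiap, 0.82 for Bcl2, 0.89 for Bak1, 1.02 for Bid, 1.05 for Bcl2l11 and 1.63 for Apaf1. The total count over all samples was 10516 for Bax and 8412 for Bcl2l1, but 476 for Bak1 and 886 for Apaf1. The standard error of the slope was 0.012 and 0.015 log2 units per day for Bax and Bcl2l1, and 0.041 and 0.064 for Bak1 and Apaf1.

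Across the 15 samples, which share their time points and so are not independent, log2(CPM + 1) of Bcl2l1 had a Pearson r of −0.73 with Bax, −0.66 with Bid and 0.59 with Xiap. Bax had an r of 0.59 with Bid and −0.019 with Casp9. The tested genes most like Bcl2l1 over these samples were Nek2 (r = 0.919), Otud7b (r = 0.916) and Serinc2 (r = 0.909). Those most like Bax were Zfp704 (r = 0.960), Scn3a (r = 0.959) and Plppr1 (r = 0.952). The most similar of them, Zfp704, was at 222 CPM at P0 and 22.1 CPM at P21 on average.

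The wider pathway was examined in 8 further lists with 55 symbols, of which 53 were matched and 42 had counts enough to be tested. Of these 42 genes, 9 rose, 6 fell and 27 did not pass in edgeR's trend test, beside 12% rising and 14.5% falling among all genes, with a median slope of −0.0062 log2 units per day beside −0.0089 for all genes. Expression was too low to test Bcl2l10, Bcl2a1b, Bbc3 (Puma), Pmaip1 (Noxa), Bik, Naip1, Naip2, Naip5, Naip6, Trp73 and Tnfrsf10b, and Bbc3 and Pmaip1 averaged 0.769 and 0.756 CPM.

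Among the 2 further guardians tested, 1 rose. Bcl2l2, which encodes Bcl-w, rose with a slope of 0.126 ± 0.039 log2 units per day (adjusted p = 0.0221 by edgeR), from 2.48 ± 3.32 RPKM at P0 to 10.6 ± 4.68 RPKM at P21, a call lost without P21 replicate 1 (0.0693). Mcl1, the short-lived guardian, did not pass, at 22.4 ± 3.92 RPKM at P0 and 11.9 ± 3.65 RPKM at P21.

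Among the 6 further BH3-only and Bax-like genes tested, 1 fell and 1 rose. Bok, the third Bax-like gene, fell with a slope of −0.134 ± 0.024 log2 units per day (adjusted p = 4.11e-04 by edgeR), from 42.5 ± 14.1 RPKM at P0 to 4.75 ± 1.54 RPKM at P21. Bok was called under every alternative and with any sample left out. Bnip3, which acts in hypoxia and mitophagy, rose with a slope of 0.035 ± 0.011, a call lost without P0 replicate 2 (adjusted p = 0.0518) or replicate 3 (0.0536) and without all P0 samples (0.192). Bad, a sensitiser, and Bnip3l, a mitophagy receptor, at 30.2 and 34.6 RPKM on average over all samples, did not pass.

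Of the 3 further caspases described, 1 fell and none rose. Casp2, an initiator caspase that responds to DNA damage and mitotic failure, fell with a slope of −0.133 ± 0.043 (adjusted p = 0.0259 by edgeR), a call lost without P0 replicate 1 (0.114), P21 replicate 1 (0.0559) or P21 replicate 3 (0.0650), without all P0 samples (0.296), with limma-voom (0.111) and with the replicate number as a block (0.0578). Casp6, which cleaves nuclear lamins, and Casp8, the initiator of the death receptor route, did not pass. With the replicate number as a block, Casp6 did pass as lower with age in the trend (adjusted p = 0.0377 by edgeR, 0.0634 without the block) and from P0 to P21 (0.0477, 0.0605 without the block).

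Of the 4 further inhibitors of apoptosis proteins tested, 2 passed as rising and 1 as falling, and neither rise held without the P0 samples. Birc5 (survivin), which also acts in mitosis, fell (adjusted p = 0.00133 by edgeR), and it was at 19.6, 18.2 and 0 CPM in P0 samples, 16.4, 20.6 and 35.6 CPM in P4 samples and 6.39, 8.47 and 8.92 CPM in P8 samples. Only 1 P14 sample held a single count and the other P14 and P21 samples none. Birc5 was highest on average at P4, but its P0 to P4 step was not called (log2 difference 0.94 ± 1.22, adjusted p = 0.838 by edgeR). The dividing-cell sum given above was highest at P0. The part of dividing cells in the fall of Birc5 was not tested. The call was lost with log2(day + 1) (0.122) and limma-voom (0.117).

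Birc2 (cIAP1) rose with a slope of 0.067 ± 0.023 log2 units per day (adjusted p = 0.0380 by edgeR), from 5.68 ± 3.04 RPKM at P0 to 12.4 ± 3.94 RPKM at P21. It was lost without replicates 2 or 3 of P0, replicate 1 of P4, any replicate of P14, or replicates 1 or 2 of P21 (0.0505 to 0.0983), without all P0 samples (0.175) and with the block (0.0560). Birc3 (cIAP2) rose (adjusted p = 0.0230 by edgeR) from 0 in all P0 samples to 3.0, 10.3 and 5.43 CPM at P21, and the call was lost without P21 replicate 2 (0.0959) and without all P0 samples (0.122). Birc6 did not pass, at 6.92 RPKM on average.

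Among 9 mitochondrial factors and apoptosome regulators, 2 rose and 1 fell. Cycs, cytochrome c, rose with a slope of 0.038 ± 0.012 log2 units per day (adjusted p = 0.0223 by edgeR), from 19.4 ± 3.03 RPKM at P0 to 27.5 ± 2.86 RPKM at P21. That call was lost without P0 replicate 2 (0.0584) and without all P0 samples (0.271). Htra2, a protease released with cytochrome c, fell with a slope of −0.090 ± 0.026 (adjusted p = 0.0142), a call lost with log2(day + 1) (0.0677).

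Aven, an inhibitor of Apaf1, rose with a slope of 0.200 ± 0.072 (adjusted p = 0.0484 by edgeR), but only just. That trend call was lost without any one replicate of P0, P4 or P14, without P8 replicate 1 and without P21 replicate 2 (0.0524 to 0.0971), without all P0 samples (0.306), with no filter on low counts (0.0569) and with the block (0.0651). In the P21 to P0 contrast Aven was higher by 5.23 ± 1.22 on the log2 scale (adjusted p = 0.00516 by edgeR, 0.0135 with the block). Its P0 samples held 0 to 2 counts each. Diablo, the antagonist of Xiap, did not pass the trend but was lower at P21 than at P0 (log2 difference −1.30 ± 0.38, adjusted p = 0.0198 by edgeR), except without P0 replicate 3 (0.0542), P21 replicate 1 (0.0764) or P21 replicate 2 (0.105). Vdac2 and Aifm1, at 86.5 and 13 RPKM on average, did not pass.

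Of 4 caspase targets and nucleases, 1 rose. Parp1, a DNA repair enzyme cleaved during apoptosis, rose with a slope of 0.074 ± 0.014 log2 units per day (adjusted p = 5.29e-04 by edgeR), from 16.2 ± 6.68 RPKM at P0 to 30.4 ± 3.93 RPKM at P21. It was called under every alternative and with any sample left out. Dffa and Rock1 did not pass.

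Among 7 tested p53 and stress regulators, 2 rose and 1 fell. Ddit3 (CHOP), the transcription factor of the endoplasmic reticulum stress response, rose with a slope of 0.105 ± 0.017 log2 units per day (adjusted p = 1.27e-04 by edgeR), from 12.6 ± 3.99 RPKM at P0 and 10.2 ± 4.92 at P4 to 43.1 ± 4.20 RPKM at P21. Its call also held under every alternative and with any sample left out. Foxo3, a transcription factor that can induce Bcl2l11, rose with a slope of 0.034 ± 0.010 (adjusted p = 0.0208), a call lost without P0 replicate 3 (0.0560) and without all P0 samples (0.136).

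Jun, a stress-induced transcription factor, fell with a slope of −0.084 ± 0.029 (adjusted p = 0.0400 by edgeR), a call lost without any one replicate of P0, P4 replicate 2, P14 replicate 1 or 3, or P21 replicate 2 or 3 (0.0534 to 0.0971), without all P0 samples (0.454) and with the block (0.0632). Atf4, which acts upstream of Ddit3 in the stress response, did not pass the trend and was higher at P21 than at P0 by 0.75 ± 0.22 on the log2 scale (adjusted p = 0.0199 by edgeR), except without P0 replicate 2 (0.0602) or P21 replicate 3 (0.0740). Trp53 (p53) and Mdm2 did not pass, with Trp53 at 14.5 ± 5.71 RPKM at P0 and 10.2 ± 1.21 RPKM at P21.

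Of 7 death receptor pathway genes tested, 1 fell. Ngfr, the p75 neurotrophin receptor, fell with a slope of −0.191 ± 0.060 log2 units per day (adjusted p = 0.0240 by edgeR), from 10.8 ± 3.40 RPKM at P0, 51.4 ± 44.4 at P4 and 29.3 ± 3.97 at P8 to 2.15 ± 2.85 RPKM at P21. Like Bid, it was highest on average at P4. The call was lost without P4 replicate 3 (0.0661), P21 replicate 1 (0.0799) or P21 replicate 3 (0.0752), with log2(day + 1) (0.485), with limma-voom (0.484) and with the block (0.0553). Tradd and Fadd did not pass. Of the genes of these lists that did not pass edgeR's trend test, Casp6, Atf4, Dffa, Hrk and Diablo passed it under at least 1 alternative or with a sample left out. Among those that passed it, Bcl2l2, Casp2, Birc2, Htra2, Jun and Ngfr did not pass the P21 to P0 contrast (adjusted p from 0.0687 to 0.117 by edgeR). The others did pass, and DESeq2 called these contrasts too.

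**Figure D4:**
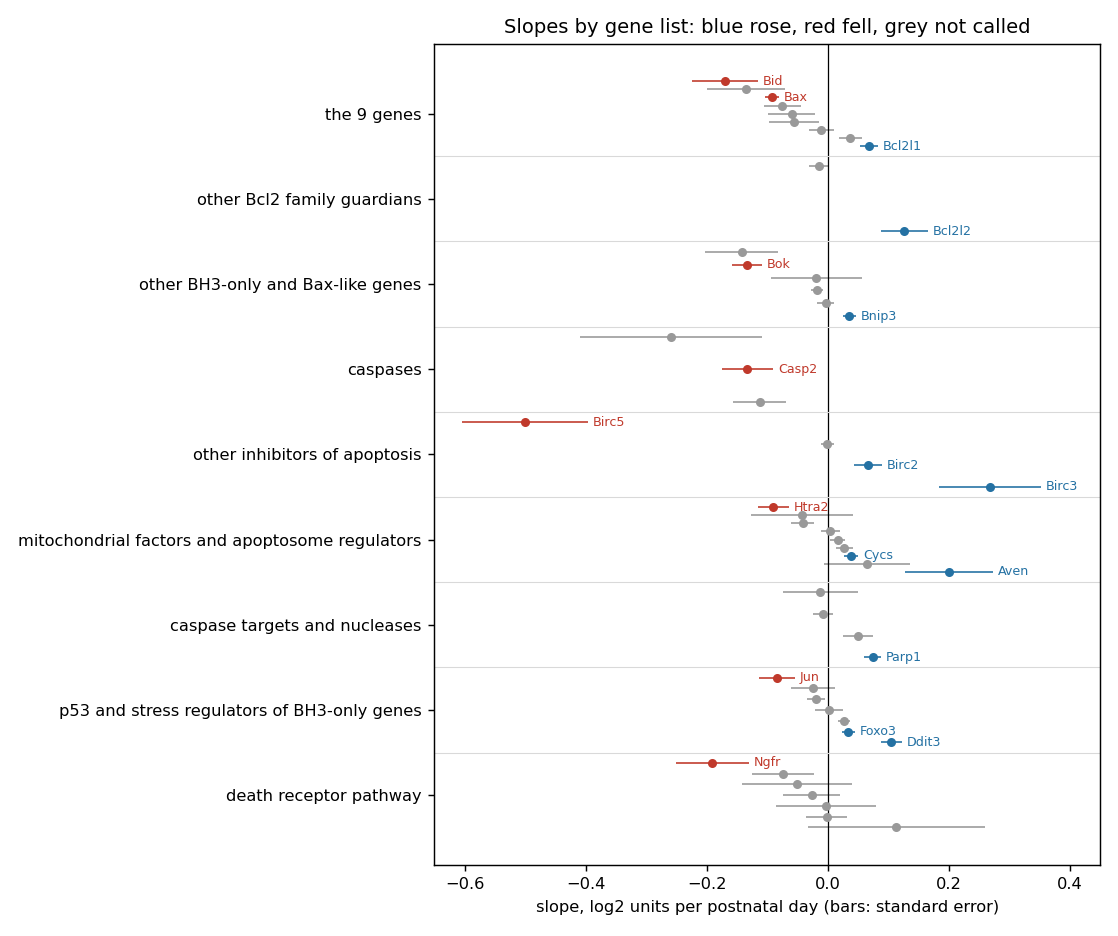
Slope on postnatal day (log2 units per day, linear axis) with its standard error for the 9 genes and for the 42 tested genes of 8 further lists. Blue points rose, red points fell and grey points did not pass an adjusted p of 0.05 in edgeR's quasi-likelihood test over 14293 genes, and called genes are named. Both directions occur in 5 of the 9 rows, with Bcl2l1 rising beside Bax and Bid falling in the top row.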

How the data were processed

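RNA from laser-captured PCs was amplified, sequenced and deposited as 1 library per sample. Per the labels and the study's methods, the authors trimmed reads with cutadapt 1.2.1, used GSNAP for alignment to GRCm38/mm10, retained reads with a unique position and ran HTSeq 0.5.3p9 in intersection-strict mode over Ensembl genes. The deposited values are raw counts, without normalization. The annotation release and use of strand are not given in the sources used here. Intersection-strict counting leaves out reads in stretches shared by genes. HTSeq's tallies of reads outside or shared between genes were kept apart from library sizes, and total counts on genes ranged from 3409371 to 7814951 per sample.

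From the counts, edgeR 4.0.16 (R 4.3.3) gave TMM factors, a filter by time point (filterByExpr, 14293 genes) and quasi-likelihood tests of postnatal day, of the time point as a factor, and of 5 contrasts, all on 15 samples, with Benjamini-Hochberg adjustment and a threshold of 0.05. Errors of fitted values (SE) were taken as the estimate over the root of its F. P-values weigh changes against the spread between biological replicates. In the test of postnatal day, departures of the time points from a straight line also enter that spread. DESeq2 1.42.0, limma-voom (limma 3.58.1), DESeq2 size factors, no filter, log2(day + 1), a replicate block, leaving out P0 and leaving out each sample were alternatives. Names, exons and lengths came from GENCODE M21, which held 36639 of the 38561 identifiers, and start sites from RefSeq. RPKM used summed exon length and total counts on genes. Samples of a time point differed well beyond sampling noise (chi-square per gene 18.4 to 56.5). The 9 genes and all lists were chosen with earlier results of these data known. Some genes of the lists are not reported here. Named from other lists were genes past the threshold in the trend or the P21 to P0 contrast (at most 6 a list), up to 2 others with the highest mean RPKM, and the 3 genes most correlated with the member of smallest trend p in each direction. Python 3.11.15 with pandas 2.3.3, numpy 2.4.6 and matplotlib 3.10.9 was used for summaries and figures.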

Additional observations from a re-analysis of the deposited data

How the results depend on the processing

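The trend and P21 to P0 calls of Bax and Bcl2l1 kept their direction and their side of the threshold under every alternative run and with any single sample left out. The number of the 9 genes falling with age was 1 instead of 2, for want of Bid, with log2(day + 1) and with limma-voom, and ranged from 1 to 3 when single samples were left out, while the number rising ranged from 1 to 2. From P0 to P21, DESeq2 called 3 of the 9 genes lower instead of 1. Over all genes, 1433 to 2065 were lower in this contrast under the alternatives, DESeq2 among them, instead of 1590. From P8 to P14 the number called higher ranged from 0 to 1 when samples were left out. Casp9, never called, turned to a slope of 0.0043 without P4 replicate 2 (range over samples left out −0.016 to 0.0043) and to a P21 to P0 difference of 0.11 without P0 replicate 3 (range −0.23 to 0.11). Over all genes, DESeq2 called 773 instead of 265 from P0 to P4, 496 instead of 160 from P4 to P8, 398 higher and 446 lower instead of 190 and 196 from P8 to P14, and 175 instead of 46 from P14 to P21. Without the P0 samples, 308 genes were called from P4 to P8 and 308 were higher from P8 to P14. Leaving out single samples gave 74 to 201 genes from P4 to P8, 89 to 237 higher and 74 to 207 lower from P8 to P14, and 24 to 68 from P14 to P21. The cause of these differences was not tested. With 3 replicates a time point, no test for outlying samples was run.

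The labels number replicates 1 to 3 at each time point, and as a block these numbers gave 1 gene of the 9 rising and 2 falling, with slopes of −0.093 for Bax and 0.069 for Bcl2l1. Residuals of samples with the same number correlated by −0.0035 on average over 30 pairs (−0.033 to 0.054), so the numbers were not taken to pair samples. Of the 9 genes' trend and contrast calls the block changed none, and Bid became called as changing in any pattern. Bak1 had 476 and Apaf1 886 counts over all samples, so counting error is larger for them than for Bax with 10516.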
